A study of Mus musculus with 3 samples.

Results

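Transcripts of the fibroblast growth factor (FGF) pathway were examined in sorted cap mesenchyme, the cells that cap each ureteric tip in the embryonic kidney and from which nephrons form. The genes were defined by symbol. They and the other gene lists below were chosen with earlier results of these data known. The set held every numbered Fgf ligand gene, the receptor genes Fgfr1 to Fgfr4 and Fgfrl1, and the feedback inhibitor genes of the Sprouty and Spred families with Dusp6. It also held the transcription factor genes Etv1, Etv4 and Etv5 and the adaptor genes Frs2 and Frs3. Of the 40 symbols so defined, 38 had a probe set assigned to that gene alone, out of 18193 genes named on the array, and these 38 genes were represented by 85 of 45037 probe sets. Etv1 and Frs2 lacked a probe set of their own and were not analysed here as genes.

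Most FGF ligands are secreted proteins that bind receptor tyrosine kinases together with heparan sulfate, and the receptors pass the signal through the Frs adaptors to the RAS-ERK cascade. ERK signalling raises the transcription of Etv4 and Etv5 and of inhibitors such as Dusp6, Sprouty and Spred genes, which dampen the same cascade. In the developing kidney, Fgf9 and Fgf20 keep nephron progenitors alive and undifferentiated, Fgf8 is needed for early nephron formation, and Fgf7 and Fgf10 act from the mesenchyme on the ureteric epithelium.

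The data comprised 3 arrays of 1 group. Each array held RNA from a pool of roughly 5 to 10 kidneys of CD-1 embryos at E15.5 (Theiler stage 23) that carried the transgene Tg(Six2-EGFP/cre)1Amc, and the embryos' sex was recorded as unknown. All pools carried the transgene, whose fluorescent protein marked the cells that were sorted, so no pool without it and no other cell population was at hand for comparison. The pools are numbered 1 to 3 after their titles. No label ties the pools to different litters, and the p-values therefore cover only the variation among these pools, which may be technical.

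Each probe set was compared with the background level of its own array, which was the 95th percentile of 150 probe sets for olfactory, vomeronasal and taste receptors, keratin-associated proteins and defensins. On the linear scale that level was 197, 186 and 201 for pools 1, 2 and 3. A probe set was above background when its mean of log2(signal + 16) over the 3 pools exceeded the level in limma's one-sided test at a Benjamini-Hochberg adjusted p under 0.05, adjusted over all 45037 probe sets. A gene was above background when any of its probe sets was, and it is represented by whichever probe set had the highest mean of log2(signal + 16). Probe sets differ in affinity, so signals of different genes were not ranked against each other, and a transcript read below the level may still be present.

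Markers of the labelled cell type were present. Those of ureteric, endothelial, macrophage and erythroid cells were largely at background, and those of stroma and early nephron largely were not. All 9 cap mesenchyme markers were above background, among them Six2 at signals of 8734, 5727 and 9255 in pools 1, 2 and 3. The counts were 3 of 10 for ureteric bud markers, 1 of 8 for endothelial and 1 of 7 for macrophage markers, beside 54.4% of all named genes. For erythroid markers the count was 0 of 5 (also 0 at an unadjusted p under 0.05 in limma's test). By contrast, 5 of 6 early nephron and 7 of 9 stromal markers passed. Among defining ureteric genes, Gata3 (4.66 ± 2.59), Cdh1 (55.6 ± 23.9) and Ret (139 ± 9.75; SD, n = 3 each) did not pass, and Wnt11, Krt8 and Krt18 did. Stromal Foxd1 (7565 ± 322) and Aldh1a2 (11845 ± 3526) passed, as did early nephron Wnt4 (5631 ± 921; SD, n = 3 each). Stromal Tbx18 and Ntn1 and early nephron Osr2 did not. The log2 ratio of 3' to 5' control probe sets was between 4.08 and 5.05 for Gapdh and between 1.82 and 3.28 for beta-actin, in which pool 1 had the lowest value.

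The pathway as a whole stood close to the rate of all genes on the array, and the counts differed by role, a difference that was not tested. Transcripts of 19 of 38 genes (50.0%) were above background, beside 54.4% of all named genes. Of the 85 probe sets, 31 (36.5%) were, beside 41.5% of all probe sets. That last share also covers 932 probe sets with several symbols and 9160 with none, unlike the 85. The share over probe sets with 1 symbol was not counted. By role, 5 of 22 ligand genes (22.7%), 4 of 5 receptor genes (80.0%), 7 of 8 feedback inhibitor genes (87.5%) and all 3 of the group made up of Etv4, Etv5 and Frs3 passed. The median log2 difference from the background level was -1.06 over the ligands, 4.59 over the receptors, 3.29 over the feedback inhibitors and 2.57 over Etv4, Etv5 and Frs3, beside 1.20 over all named genes. All 19 genes that passed had signals over the level in each of the 3 pools, and 14 of the 19 that did not pass were under it in each pool.

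**Figure D1:**
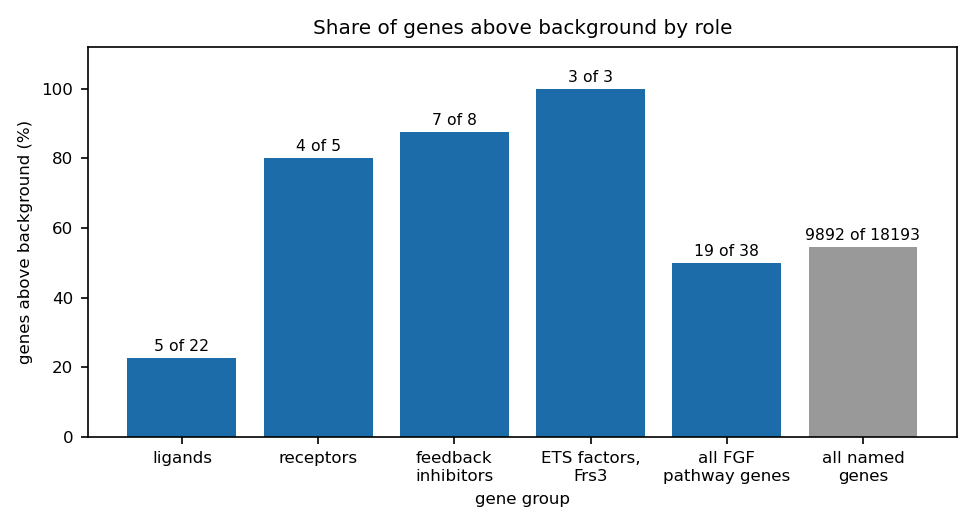
Bars give the percentage of genes above background in each role of the FGF pathway, in the pathway as a whole and among all named genes (grey), with the counts over the bars. The ligands reach 22.7%, while the receptors and feedback inhibitors reach 80.0% and 87.5% and all named genes 54.4%.

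**Figure D2:**
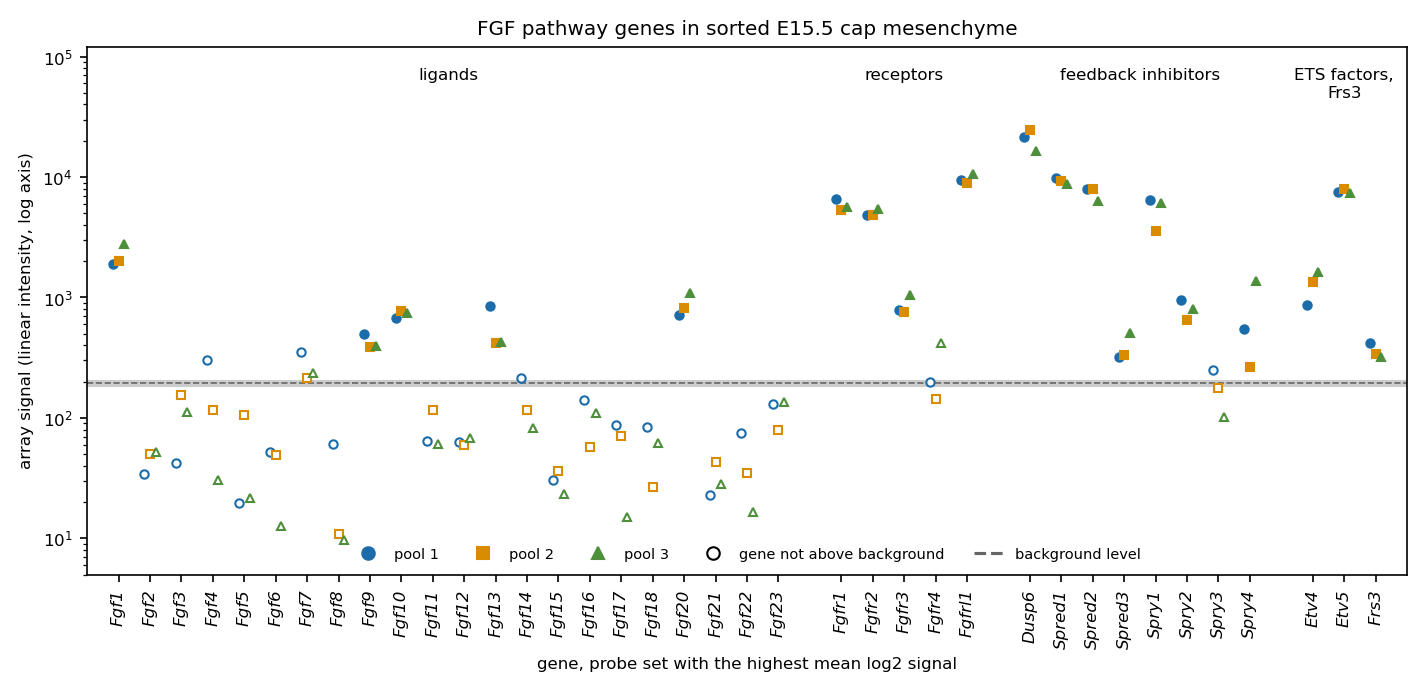
Points give the array signal (linear intensity on a log axis) of each FGF pathway gene in pools 1, 2 and 3, for the representing probe set, and open points mark genes not above background. The dashed line is the mean background level and the grey band its range over the 3 arrays, 186 to 201. Most ligands lie below the band, and all receptors other than Fgfr4 lie above it.

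Among the ligands, the transcripts above background were those of Fgf1, Fgf9, Fgf10, Fgf13 and Fgf20. With the level at the 99th percentile of background in place of the 95th, 3 ligand genes and 20 of the 85 probe sets passed. The shares of all named genes and of all probe sets at that level were not counted. Fgf20, a ligand of nephron progenitors, had signals of 711, 810.0 and 1093 in pools 1, 2 and 3. Its mean log2 difference from the background level was 2.05 (SE 0.175, adjusted p = 1.54e-05, limma). Every pool was above the level of its array, with pool 3 the highest.

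Fgf9, which acts with Fgf20 in progenitor maintenance, read 495, 387 and 397 on its stronger probe set, with a log2 difference of 1.06 (SE 0.208, adjusted p = 0.00197). Its second probe set read 94.4, 137 and 145 and did not pass, so the call of this gene rests on 1 of 2 probe sets. With the level at the 99th percentile of background the stronger probe set was no longer above it (log2 difference -0.067). Fgf16, the third member of that subfamily, read 140.44, 57.4 and 109 on its single probe set, below the level in each pool.

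Fgf1, an FGF that binds all the FGF receptors and lacks a classical signal peptide, had signals of 1903, 2026 and 2766 in pools 1, 2 and 3, a log2 difference of 3.40 (SE 0.145, adjusted p = 2.29e-07). A second probe set also passed, at 672, 742 and 750.4. The third probe set read 326, 191 and 157 and did not pass. On the first of these the pools lay within 1.45-fold of each other on the log2(signal + 16) scale. Fgf2, the close relative of Fgf1, read 34.0, 50.6 and 51.7 on its single probe set, below the level in each pool.

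Fgf10, known as a mesenchymal ligand for epithelial Fgfr2, had 1 probe set with signals of 671, 771 and 738 and a log2 difference of 1.82 (SE 0.165, adjusted p = 2.23e-05). Fgf7, which uses the same epithelial receptor form, read 352, 216 and 234, over the level in each pool, but did not pass (log2 difference 0.40, 95% confidence interval -0.24 to 1.04, adjusted p = 0.208). With the level at the 90th percentile Fgf7 passed (log2 difference 0.72, adjusted p = 0.0469). Fgf3 and Fgf22, the remaining genes of that subfamily, lay below the level in each pool with mean signals of 103 and 42.0. Renal stroma is a known source of Fgf7. The 9 stromal markers that accompanied them here summed to signals of 29158, 22926 and 23142 in pools 1, 2 and 3. Such a sum is weighted towards strong probe sets such as that of Aldh1a2, which read 15849, 9206 and 10478. The markers did not share a highest pool. It was pool 1 for Aldh1a2, Meis1 and Tbx18, pool 3 for Foxd1 and pool 2 for the others. Of these markers 7 were above background, and Tbx18 and Ntn1 were below the level in each pool. Their part in the Fgf7 and Fgf10 signals was not tested. Fewer cells of a type and less RNA per cell cannot be told apart in such pools.

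Fgf13 belongs to the intracellular FGF-like proteins, which bind sodium channels and are not secreted. Its signals were 849.58, 420.25 and 424.51 on the probe set that passed (log2 difference 1.39, SE 0.250, adjusted p = 0.00127), and 86.2, 86.8 and 76.0 on its other probe set, which did not. The call was lost at the 99th percentile of background (log2 difference 0.26, adjusted p = 0.461). Pool 1 stood 2.02-fold over pool 2, the lowest, on the first probe set, and close to it on the second. The other intracellular members, Fgf11, Fgf12 and Fgf14, did not pass, with mean signals of 80.3, 63.4 and 138.

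There were 3 ligand subfamilies with no member above background. None of Fgf4, Fgf5 and Fgf6 passed, nor any of Fgf8, Fgf17 and Fgf18, nor any of Fgf15, Fgf21 and Fgf23, which are known for hormone-like roles. None of these 9 genes reached an unadjusted p under 0.05 in limma's test either. Fgf8, a gene of the forming renal vesicle, had signals of 60.7, 10.8 and 9.71 on its single probe set, all below the level. Fgf4, a ligand of the early embryo, read 304, 117 and 30.4, and was over the level in pool 1 only. Fgf14 was likewise over the level in pool 1 only, at 215, 116 and 83.0. Fgf15, Fgf21 and Fgf23 had mean signals of 30.0, 31.5 and 116. These genes, Fgf6 and Fgf18 also had 1 probe set each.

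Receptor transcripts were above background with the exception of Fgfr4. Fgfr1, which nephron progenitors are known to use, read 6514, 5300.07 and 5627 in pools 1, 2 and 3, a log2 difference of 4.79 (SE 0.122, adjusted p = 1.79e-08, limma), and all 3 of its probe sets passed. Fgfr2, the partner of Fgfr1 in the metanephric mesenchyme and the main receptor of the ureteric bud, read 4837, 4878 and 5405 (log2 difference 4.59, SE 0.116, adjusted p = 1.76e-08). Both receptors differed little between pools, by 1.23-fold and 1.12-fold from lowest to highest on the log2(signal + 16) scale.

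For Fgfr2, 2 of 3 probe sets passed, both of a kind that can match several transcripts of a gene or family. The third read 27.2, 9.52 and 24.4, far below the level. The Fgfr2 call is therefore lost when such probe sets are left out (log2 difference -2.57), and with Fgfrl1, whose 2 probe sets are both of that kind, the receptor count falls from 4 to 2. Fgfr2, Spry1, Etv4 and Etv5 are known to be active in ureteric tips too. The ureteric markers summed to signals of 1553, 1156 and 2281 in the 3 pools, with 3 of 10 above background. Their part in the signals of these 4 genes was not tested.

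Fgfrl1, which encodes a receptor without a kinase domain that is required for nephron formation, read 9409.7, 8858 and 10679 (log2 difference 5.52, SE 0.121, adjusted p = 1.6e-08). Its second probe set also passed, at 3024, 1959 and 2703. Fgfr3 read 792, 764 and 1058 (log2 difference 2.06, SE 0.164, adjusted p = 9.84e-06), with the highest value in pool 3, and its other probe set was below the level in each pool. Fgfr4 read 199.80, 143 and 416, over the level in pools 1 and 3, and none of its 5 probe sets passed in limma's test, nor reached an unadjusted p under 0.05 (adjusted p = 0.568 for the strongest, log2 difference 0.22, 95% confidence interval -0.59 to 1.03).

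Feedback inhibitor transcripts were above background in all but 1 case. Dusp6, the phosphatase that inactivates ERK in the cytoplasm, had signals of 21597, 24419.9 and 16532 in pools 1, 2 and 3. Its log2 difference of 6.61 (SE 0.166, adjusted p = 1.73e-08, limma) rested on its single probe set. Pool 3 was the lowest for this gene.

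Spry1, which restrains signalling of the Ret and FGF receptors in the kidney, read 6495, 3568 and 6128 (log2 difference 4.64, SE 0.175, adjusted p = 1.13e-07), with pool 2 lower than both other pools. Spry2 read 959, 645 and 801 on the probe set that passed (log2 difference 1.94, SE 0.172, adjusted p = 1.92e-05), again with the lowest value in pool 2, while its other probe set read 117, 172 and 82.2 and did not pass. Spry3 read 249.92, 176 and 102 on its single probe set. It was the feedback gene that did not pass (log2 difference -0.21, 95% confidence interval -1.04 to 0.63).

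Spry4 was the gene with the widest range between pools among the 19 that passed. Its strongest probe set read 543, 265 and 1368 in pools 1, 2 and 3, a range of 4.92-fold on the log2(signal + 16) scale, with a log2 difference from background of 1.52 (SE 0.384, adjusted p = 0.00747). A second probe set that passed read 416, 459 and 384, with pool 3 the lowest instead of the highest (log2 difference 1.05, adjusted p = 0.00222). The remaining 2 probe sets did not pass, at mean signals of 236 and 24.2. The probe sets that passed thus differed in which pool was the highest. At the 99th percentile of background, Spry4 was not called (log2 difference 0.39, adjusted p = 0.376).

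The Spred genes encode membrane-bound inhibitors of RAS-dependent RAF activation. Spred1 read 9723, 9184.5 and 8747 on its strongest probe set (log2 difference 5.45, SE 0.121, adjusted p = 1.6e-08), and 4 of its 8 probe sets passed. Spred2 read 7931, 7927 and 6286 (log2 difference 5.13, SE 0.137, adjusted p = 2.07e-08), with 2 of 5 probe sets above background. Spred3 was close to the level, at 319.71, 330.0 and 511 (log2 difference 0.91, SE 0.235, adjusted p = 0.00831), and without pool 3 it no longer passed (log2 difference 0.72, adjusted p = 0.0576), nor at the 99th percentile of background (log2 difference -0.23).

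Of the ERK-responsive ETS factor genes, Etv5 and Etv4 both passed. Etv5 had signals of 7523, 7962 and 7394, an SD of 3.90% of the mean (n = 3), and a log2 difference of 5.18 (SE 0.121, adjusted p = 1.6e-08, limma), and all 3 of its probe sets were above background. Etv4, a target of Ret signalling in ureteric tips as well, read 864, 1339.85 and 1616 on the probe set that passed (log2 difference 2.57, SE 0.196, adjusted p = 7.73e-06), with pool 1 the lowest. Its other probe set read 146, 33.8 and 87.5 and did not pass.

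Frs3, an adaptor that links the receptors to Grb2 and Ptpn11, read 419, 339 and 322. Its log2 difference of 0.83 (SE 0.225, adjusted p = 0.0104) placed it close to the threshold, and without pool 2 the call was lost (log2 difference 0.84, adjusted p = 0.0672), as it was at the 99th percentile of background (log2 difference -0.30).

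Because Etv4 and Etv5 are DNA-binding proteins of the ETS family, the sequence upstream of the pathway genes was searched for an ETS motif. The letters sought on both strands were CCGGAA, which extend the shorter ETS core GGAA. RefSeq start sites of build GRCm38.p6 were given for 28 of the 38 genes, with 36 start sites in all. In the 250 bases before the start, 4 of 36 windows (11.1%) held CCGGAA, beside 12% of all 32851 windows of that length. The 4 genes were Fgf5, Fgf12, Fgfr4 and Fgfrl1, of which Fgfrl1 was above background. A match is a description of letters, and a window without one says only that these letters are not in it. The windows of Fgfrl1, Dusp6 and Spry1 are shown, with CCGGAA in capitals, because the first holds the motif and the others belong to feedback genes known to respond to the pathway. They run 5' to 3' on the plus strand, over chr5:108693979-108694228, chr10:99262981-99263230 and chr3:37639697-37639946.
Fgfrl1: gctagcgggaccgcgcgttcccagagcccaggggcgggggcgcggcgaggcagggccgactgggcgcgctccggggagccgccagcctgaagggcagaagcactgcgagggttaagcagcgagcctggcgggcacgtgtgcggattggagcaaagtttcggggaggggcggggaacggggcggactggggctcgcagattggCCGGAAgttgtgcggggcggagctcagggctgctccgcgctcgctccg
Dusp6: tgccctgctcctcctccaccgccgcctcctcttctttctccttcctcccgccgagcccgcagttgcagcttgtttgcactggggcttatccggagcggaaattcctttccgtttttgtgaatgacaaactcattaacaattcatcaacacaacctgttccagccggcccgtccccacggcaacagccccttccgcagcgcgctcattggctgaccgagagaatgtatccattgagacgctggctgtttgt
Spry1: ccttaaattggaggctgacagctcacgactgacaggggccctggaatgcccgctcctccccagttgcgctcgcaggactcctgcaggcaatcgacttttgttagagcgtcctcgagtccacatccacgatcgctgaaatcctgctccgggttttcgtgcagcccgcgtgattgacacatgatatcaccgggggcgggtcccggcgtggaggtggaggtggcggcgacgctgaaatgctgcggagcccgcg

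The motif in Fgfrl1 began at position -48 from the start site. It extended to CCGGAAGT, which 1 of the 36 windows and 2.88% of all windows held. The windows of Dusp6 and Spry1 held no CCGGAA on either strand, though both held the shorter GGAA. Both transcripts were above background on the arrays.

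The probe sets of a pathway gene often fell on both sides of the background level. Several probe sets were available for 13 of the genes above background, of which 10 had at least 1 probe set that passed and 1 that did not, and Etv5, Fgfr1 and Fgfrl1 had all of theirs above background. Among the 8 genes with several probe sets that passed, the same pool was the highest in all of them for 2 genes. Neither count was made over all named genes, so no rate of the whole array stands beside them.

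**Figure D3:**
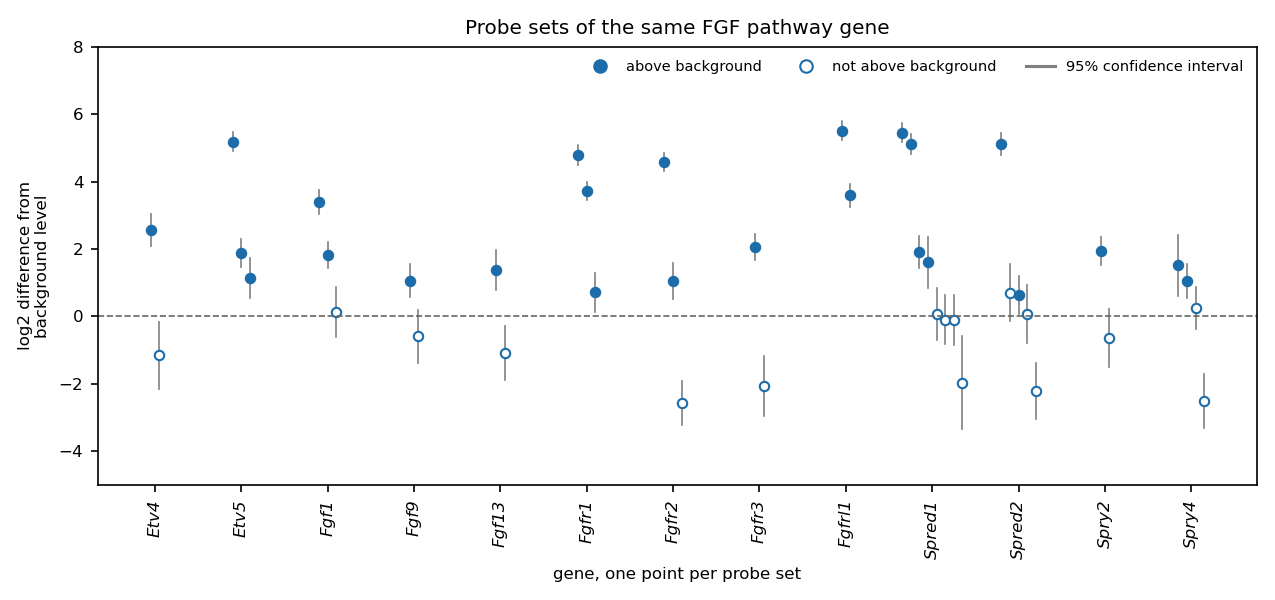
Each point is a probe set of 1 of the 13 FGF pathway genes that had several probe sets and were above background, with its log2 difference from the background level and a 95% confidence interval from the model over 3 pools. Filled points passed the test. Spred1 spans from 5.45 down to -1.97, and Fgfr2 from 4.59 to -2.57.

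The pools differed little for most of the pathway. The median range between the highest and the lowest pool was 1.38-fold for the 19 genes above background, beside 1.36-fold for all 9892 named genes above background, both on the log2(signal + 16) scale. Spry4 was the single gene of the 19 with a range of 2-fold or more, beside 6.87% of all named genes above background, and without pool 3 the count was 0. Fgf13 came close, at a log2 range of 0.99, and passes 2-fold with a pseudocount of 1. The highest signal lay in pool 1 for 8, in pool 2 for 3 and in pool 3 for 8 of the 19 genes. Among all named genes above background, pool 3 was the highest for 43.0%.

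Immediate early genes, which respond to ERK signalling and also to cell dissociation, were set beside the feedback genes. Of 18 such genes, 15 were above background, beside 54.4% of all named genes. Of these 15, 11 were highest in pool 3, beside 43.0% of all named genes above background. Egr1, a transcription factor gene induced by growth factors, had signals of 52566, 79613 and 58462, with pool 2 the highest. Fos, another such gene, had 27809, 38299.5 and 40057. For Egr3 the signals were 314, 802 and 2232, and for Egr2 they were 3188, 2561 and 6466. In both genes pool 3 stood above both other pools. Fosb read 1324, 698 and 1875, also highest in pool 3. Jund read 7275, 3626 and 4162, highest in pool 1. Egr3, Egr2, Fosb and Jund were the 4 early genes above background with a range of 2-fold or more. Junb, Atf3 and Fosl1 did not pass. The median deviation of the 15 early genes from the mean of the 3 pools was -0.23, -0.11 and 0.32 on the log2 scale in pools 1, 2 and 3. The same medians over the 7 feedback genes were 0.08, -0.19 and 0.02, and those over all named genes above background were -0.04, -0.02 and 0.06.

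**Figure D4:**
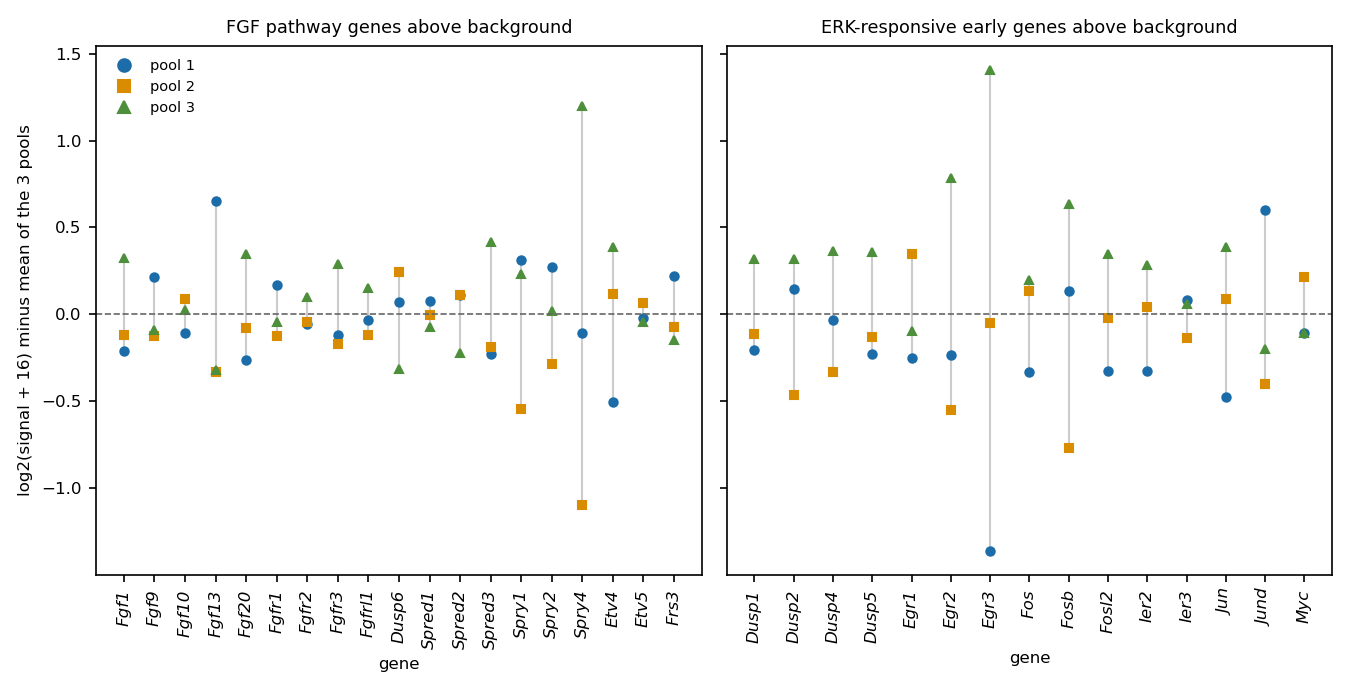
Points give log2(signal + 16) in each pool minus the mean of the 3 pools, for the 19 FGF pathway genes above background (left) and the 15 ERK-responsive early genes above background (right), and grey lines join the extremes. Pool 3 is highest for 11 of the 15 early genes and for 8 of the 19 pathway genes, beside 43.0% of all named genes above background. Spry4 has the widest range on the left.

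Among the 7 feedback genes above background, pool 3 was the highest for Spry4 and Spred3 and the lowest for Dusp6, Spred1 and Spred2, and 4 of the 7 were above their own mean in that pool. Spry1 and Spry2 were highest in pool 1. The part of dissociation in these signals was not tested. All 3 pools had been treated with trypsin.

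The measured transducers between receptor and nucleus were above background throughout. Of 22 listed RAS-ERK and phospholipase C transducers, 17 had a probe set of their own and all 17 were above background, beside 54.4% of all named genes, with a median log2 difference of 4.85, beside 1.20. The kinase gene Map2k1 (12731 ± 704), the phosphatase gene Ptpn11 (18348 ± 1586) and the docking protein gene Gab1 (10501 ± 612; SD, n = 3 each) had the largest moderated statistics. Nf1, a RAS inactivator gene, had the smallest at 442 ± 73.6, with Shc1 next at 966 ± 308.

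Co-receptor and modulator genes passed in 9 of 13 measured cases, beside 54.4% of all named genes, with a median log2 difference of 2.69, beside 1.20. Sdc1, a heparan sulfate proteoglycan (9167 ± 818), Il17rd, an FGF pathway inhibitor also known as Sef (11683 ± 1097), and Flrt2 (3529 ± 347; SD, n = 3 each), which encodes a membrane protein that can bind FGF receptors, had the largest statistics. Kl and Klb, the co-receptor genes for the hormone-like FGFs, did not pass. Kl read 29.6, 87.9 and 36.3, below the level in each pool. Klb read 12.6, 142 and 29.2, also below it in each pool, as were the ligands Fgf15, Fgf21 and Fgf23.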

How the data were processed

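The deposited table holds an array intensity on a linear scale for every probe set in each pool. The authors made it with GCOS, the Affymetrix array software, per the submitters' processing notes; its version and settings are not given in the sources used here. A mean trimmed by 2% at both ends came to 1500 for each of the 3 arrays, which shows a common scaling target that removes differences in total signal between pools. Per the labels' protocols, kidneys were dissociated in trypsin for 5 minutes at 37 °C, filtered through a 70 micron mesh and sorted, and RNA was amplified in 2 rounds, which is known to favour 3' ends.

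From the deposited intensity, log2(signal + 16) minus the background level of each array was computed for all 45037 probe sets that were not controls and tested with limma 3.58.1 in R 4.3.3 (intercept-only model, eBayes with an intensity trend, one-sided, Benjamini-Hochberg adjustment). Adding 16 shrinks differences between weak signals. The level was set by the background probe sets, of which 2 of 150 passed. In simulated data, the test called 22% of the probe sets set at 0.5 on the log2 scale above the level, 98% of those at 1 and 0% of those at -1. Each of these was given the median SD of probe sets above the level. Weak signals can vary more, so the shares called at 0.5 and 1 may be too high for them.

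Gene names come from the platform annotation, in which 34945 probe sets had 1 symbol, 932 several and 9160 none, and only those with 1 symbol name a gene. The rule for naming was that every gene of the pathway set may be named, all early genes, and from the co-receptor and transducer lists the 3 highest and the 2 lowest by moderated statistic. The rule did not cover the cell type markers, and those named were chosen after their values were seen. Some transducer and co-receptor genes without a probe set of their own were not analysed here. The members, lists and tests were chosen with earlier results of these data known. Start-site sequences are from RefSeq, GRCm38.p6. The number of arrays limits the precision. Tables and plots were made in Python 3.11.15 (pandas 2.3.3, matplotlib 3.10.9). The alternatives, with their effects in the closing section, were other pseudocounts, background percentiles and background probe sets, quantile normalization, a filter on low values, no trend, no probe sets that can match several transcripts, and leaving out each pool.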

Additional observations from a re-analysis of the deposited data

Results flagged for a closer look

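Etv1, an ETS factor gene of the same family as Etv4 and Etv5, is covered by 3 probe sets that the annotation assigns to both Etv1 and Gm5454, so they were left out of all counts of genes. They are given here because 2 of them showed signal above background. They entered only the test and the counts over all probe sets. The first had a mean signal of 1084 ± 36.2 (SD, n = 3), with 1074, 1124 and 1054 in pools 1, 2 and 3 and a log2 difference of 2.39 from the background level (adjusted p = 1.77e-06, limma). The second had a mean of 1074 ± 270.1 (n = 3; adjusted p = 6.54e-06), and the third, at 45.5 ± 14.0, did not pass. Which of both genes the signal comes from was not tested.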

How the results depend on the processing

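Under 12 alternatives, counting each left-out pool as 1, 31 of the 38 genes kept their call in every alternative that gave them a value (13 above background and 18 not), and 7 changed under at least 1. Of the 31, Fgfrl1, Fgf2 and Fgf8 had no value once probe sets with shared-transcript suffixes were dropped, so their calls could not be tried there. The total of 19 genes above background ranged from 14 to 20. The shares of all named genes and of all probe sets were not counted under the alternatives. At the 99th percentile of background the ligand count fell to 3 and the probe set count to 20, Spry4 (log2 difference 0.39) and Fgf13 (0.26) lost their calls, and Fgf9 (-0.067), Spred3 (-0.23) and Frs3 (-0.30) turned below the level. At the 90th percentile Fgf7 passed (0.72, adjusted p = 0.0469, limma, within 0.0469 to 1.0 over its alternatives). When probe sets with shared-transcript suffixes were dropped the receptor count was 2 and Fgfr2 was at -2.57. With a pseudocount of 1 the genes with a range of 2-fold or more numbered 2, and leaving out 1 pool gave 0 to 1. Leaving out 1 pool gave 18 to 19 genes and 28 to 30 probe sets above background. The cause of these changes was not tested, apart from the stricter or laxer level itself. No paired analysis was possible because the study has a single group. Signals near the level and the choice of probe sets both limit the calls.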
